A study of Homo sapiens with 14 samples.

Results

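Surface antigens that are used as drug targets in prostate cancer were followed in 22Rv1, an established human prostate cancer cell line, after loss or substitution of the transcription factor FOXA1. The set held 9 named genes, FOLH1, STEAP1, STEAP2, DLL3, PSCA, CEACAM5, CD276, EPCAM and NECTIN4, out of 57904 features in the knockdown table, 57905 in each degradation table and 20243 in the R219S table. The genes were chosen by name for their use in therapy, with earlier results of these data known. All 9 were found in all 4 tables, NECTIN4 under its older name PVRL4 in the R219S table. The data were RNA-seq counts from 14 libraries in 7 groups of 2.

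The groups were cells given a control hairpin by lentivirus (shCtrl) and cells given a FOXA1 hairpin (shFOXA1). Cells whose FOXA1 carried the dTAG degradation tag were taken at 0 h, 1 h and 24 h, and the last pair of groups, named WT and R219S, also carried the tag. R219S is an amino acid substitution in FOXA1, and the labels say that the tagged samples received either dTAG or its solvent DMSO, without saying which for WT and R219S, or how many clones they represent. The titles of the shCtrl libraries read 22Rv2 while their other labels read 22Rv1. The labels name no group held for 24 h without the degrader, so that time in culture and the compound cannot be told apart from loss of FOXA1. Nothing in the labels says that replicates were separate cultures, and p-values therefore measure only the spread between these libraries.

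FOXA1 is a pioneer factor that opens chromatin for other transcription factors in luminal prostate cells. Surface antigens of prostate cancer fall into several kinds: prostate-restricted proteins such as the FOLH1 product PSMA and the STEAP metalloreductases, general epithelial adhesion molecules such as EPCAM and nectins, and proteins of neuroendocrine tumours such as DLL3. Antibody conjugates, T cell engagers and radioligands bind these proteins at the cell surface, so their transcript levels bear on how much target a cell can make, although RNA does not measure protein at the surface.

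Across the libraries, total counts ran from 21560090 to 38465155. Levels are CPM, counts scaled to the library total, and log2 fold changes are from edgeR with their standard error. A gene was called when its Benjamini-Hochberg adjusted p over all genes tested was under 0.05. FOXA1 mRNA was at 406 and 437 CPM in shCtrl and at 297 and 301 CPM in shFOXA1 (log2 fold change -0.47 ± 0.062, adjusted p = 0.000275). It was at 166 to 169 CPM at 0 h and 1 h, at 207 and 199 CPM at 24 h, at 1021 and 1041 CPM in WT, and at 699 and 678 CPM in R219S. Degradation acts on the protein, and the transcript does not report it. All 8 luminal markers had counts in every group, and their summed level ran from 2329 to 9434 CPM. Summed endothelial markers stayed at or below 0.934 CPM and summed leukocyte markers at or below 4.2 CPM. In bulk RNA, fewer cells that express a gene and less RNA per cell cannot be told apart.

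STEAP1 and STEAP2 lie next to each other on the same strand with no RefSeq gene wholly between them, and both transcripts fell at 24 h and in R219S, though not in the knockdown. The 250 bases before each of their RefSeq starts (build GRCh38.p14) are therefore shown 5′ to 3′, 1 start for STEAP1 and 2 for STEAP2. Capitals mark matches to the forkhead letters TNTTTAC on either strand.
STEAP1, chr7:90154219-90154468, + strand: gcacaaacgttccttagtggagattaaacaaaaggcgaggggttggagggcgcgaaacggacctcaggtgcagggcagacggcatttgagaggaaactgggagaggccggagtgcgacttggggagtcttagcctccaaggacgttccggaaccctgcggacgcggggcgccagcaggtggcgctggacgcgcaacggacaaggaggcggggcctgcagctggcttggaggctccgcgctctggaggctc
STEAP2, chr7:90211490-90211739, + strand: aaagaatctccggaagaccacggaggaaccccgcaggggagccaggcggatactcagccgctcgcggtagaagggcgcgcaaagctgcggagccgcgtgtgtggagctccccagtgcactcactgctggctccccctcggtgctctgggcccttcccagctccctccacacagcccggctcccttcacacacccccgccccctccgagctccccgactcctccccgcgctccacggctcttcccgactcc
STEAP2, chr7:90213570-90213819, + strand: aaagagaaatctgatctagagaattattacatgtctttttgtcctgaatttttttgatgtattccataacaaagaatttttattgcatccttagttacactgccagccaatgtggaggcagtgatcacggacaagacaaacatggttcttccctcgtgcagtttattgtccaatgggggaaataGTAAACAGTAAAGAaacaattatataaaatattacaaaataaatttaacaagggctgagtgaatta
Only the last window held the forkhead letters, in 2 matches that begin 66 and 59 bases before that start, and 9.58% of 35116 RefSeq promoter windows of this length held at least 1. The windows at STEAP1 and at the first STEAP2 start were rich in G and C (64.4% and 69.6%), while the second STEAP2 window was at 32.8%. A match is a description of letters and not of binding. Windows of 5 of the 9 genes were searched, and no match to TNTTTAC was found in those of CD276, CEACAM5 or NECTIN4. Windows of FOLH1, DLL3, EPCAM and PSCA were not searched.

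**Figure D1:**
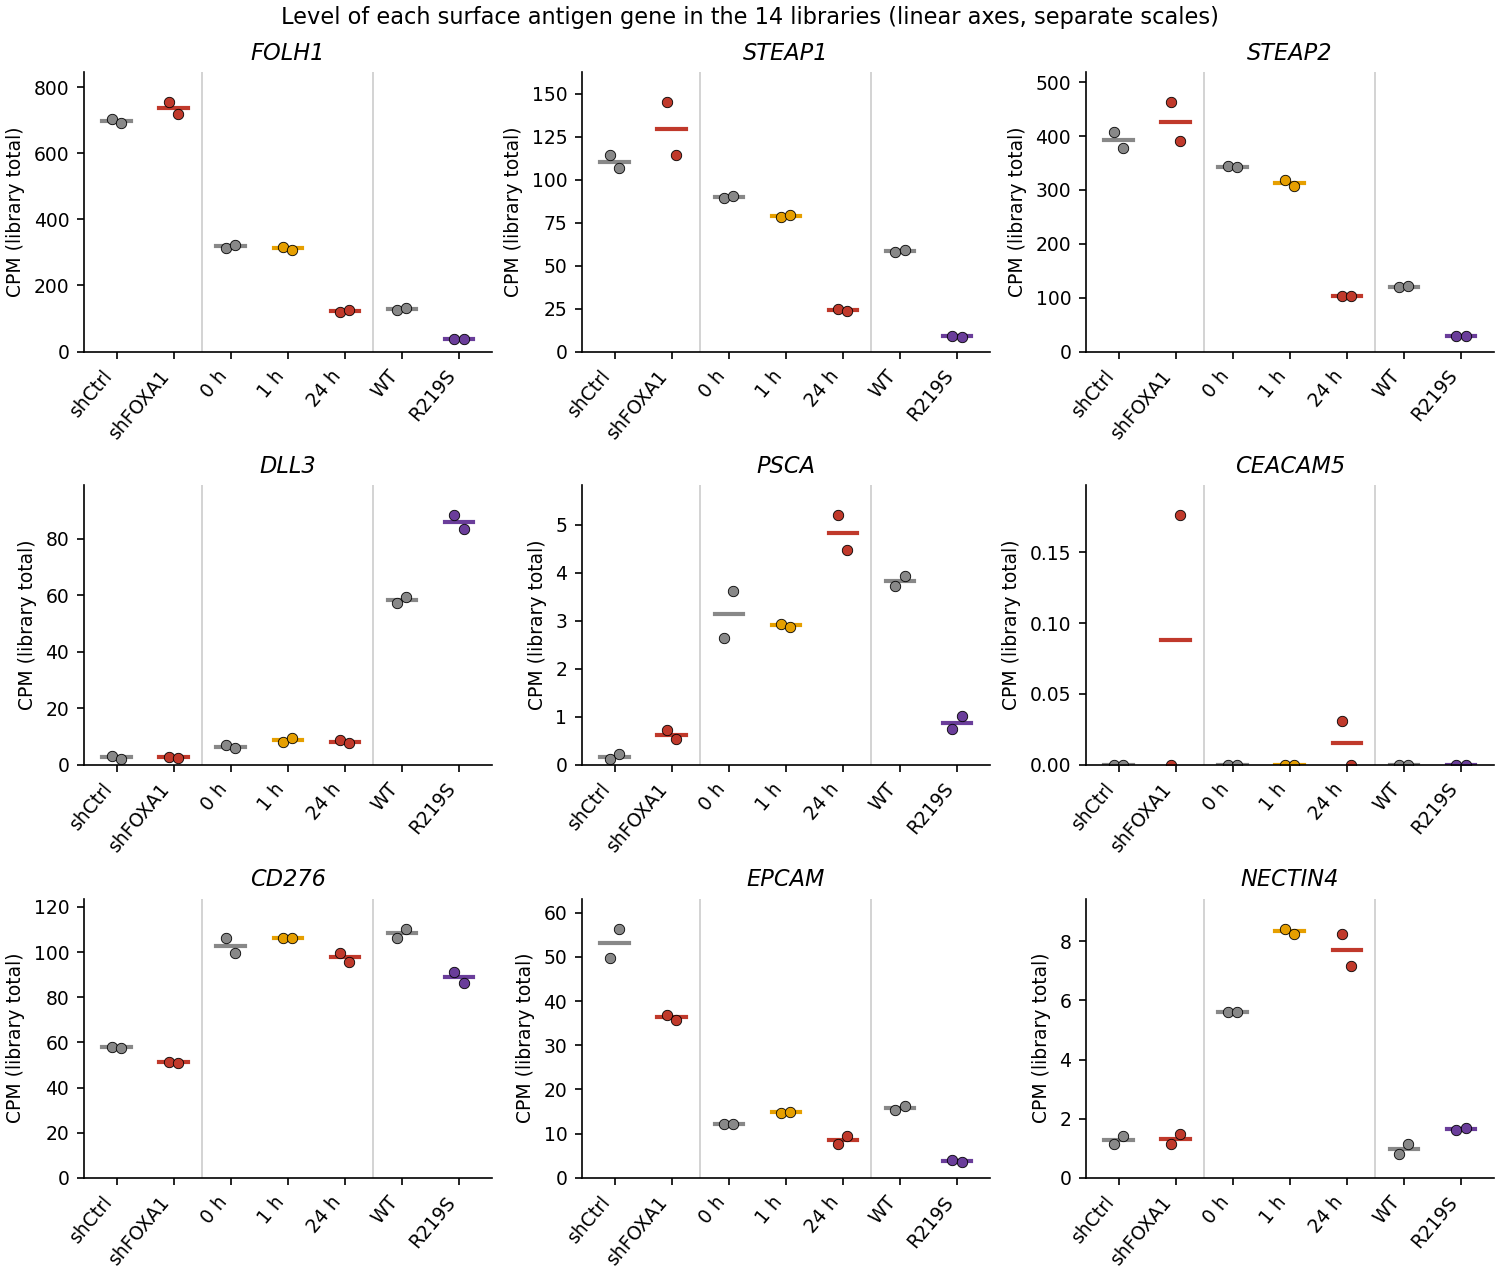
Level of each of the 9 genes in every library, in CPM of the library total on linear axes with a separate scale per gene. Points are libraries and bars are group means (2 libraries per group). Grey lines separate the hairpin groups, the degradation groups, and WT with R219S. FOLH1, STEAP1 and STEAP2 were lower at 24 h than at 0 h and lower in R219S than in WT, while shFOXA1 was not below shCtrl.

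Per kilobase of exon (lengths from GENCODE 29), FOLH1 was the highest of the 9 genes in shCtrl at 182 ± 2.36 CPM per kb (SD, n = 2), followed by STEAP1 at 67.9 ± 3.35 and STEAP2 at 45 ± 2.36. EPCAM (21.1 ± 1.88) and CD276 (10.4 ± 0.0631) came next, and DLL3, NECTIN4 and PSCA were at or below 1.02 CPM per kb. At 0 h the order again began with FOLH1 (83.3 ± 1.32), STEAP1 (55.3 ± 0.591) and STEAP2 (39.3 ± 0.118), and PSCA and NECTIN4 overlapped. By 24 h CD276 (17.6 ± 0.515 CPM per kb) stood above STEAP1 (14.8 ± 0.401) and STEAP2 (11.9 ± 0.059), with no overlap between their libraries. At 24 h the libraries of EPCAM overlapped those of DLL3, and those of DLL3 overlapped those of PSCA, while EPCAM (from 3.01 CPM per kb) lay above PSCA (up to 2.95). In R219S the order was led by DLL3 (32.8 ± 1.3) and CD276 (16 ± 0.616), ahead of FOLH1 (9.84 ± 0.19) and STEAP1 (5.46 ± 0.347), whereas in WT STEAP1 (36 ± 0.56) and FOLH1 (33.7 ± 0.695) were the highest. These orders depend on the exon lengths used. In CPM, STEAP2 (103 and 104) lay above CD276 (99.7 and 95.7) at 24 h. In WT, STEAP1 (57.9 and 59.2 CPM) lay below FOLH1 (127 and 131). In R219S, CD276 (91.2 and 86.4 CPM) overlapped DLL3 (88.3 and 83.5), and both stayed above FOLH1 (37.1 and 38.1).

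The control groups of the separate tables held different levels, which were not tested against each other. FOLH1 was at 698 ± 9.02 CPM in shCtrl, 319 ± 5.05 at 0 h and 129 ± 2.66 in WT (SD, n = 2 each). DLL3 ran the other way, at 2.66 ± 0.779 CPM in shCtrl, 6.45 ± 0.649 at 0 h and 58.2 ± 1.49 in WT. EPCAM was at 53.1 ± 4.73 CPM in shCtrl against 12.3 ± 0.0882 at 0 h and 15.8 ± 0.559 in WT.

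The knockdown comparison asked which transcripts change when FOXA1 mRNA is reduced by a hairpin. EPCAM fell, and the call of PSCA as higher rested on few counts. PSCA passed the filter only through shFOXA1 and was not called when any of 3 of the 4 libraries was left out, and the 6 other tested genes did not pass. Among the 8 antigens tested, 1 was called higher and 1 lower, in a comparison in which 23.6% of all genes were called, 11.3% higher and 12.3% lower. The median log2 fold change was 0.094 over the 8 and 0.01 over all genes. CEACAM5 had too few counts to be tested in this or any other comparison.

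After 1 h of degradation NECTIN4, DLL3 and EPCAM were higher and STEAP1 and STEAP2 slightly lower. That made 3 called higher and 2 lower of 8 tested, with 19.8% of all genes called (10.7% higher and 9.12% lower), and the largest of these changes, that of NECTIN4, was 1.48-fold. At 24 h FOLH1, STEAP1, STEAP2, EPCAM and CD276 were lower and PSCA and NECTIN4 higher, 5 and 2 of 8, with 46.9% of all genes called (24.8% lower and 22.1% higher). FOLH1, STEAP1 and STEAP2 were called lower by at least 2-fold, as were 4.41% of all genes. The median log2 fold change over the 8 was 0.0035 at 1 h and -0.34 at 24 h, beside 0.00074 and 0.0056 over all genes. Beside the 24 h falls, the summed level of 7 basal cell markers was 49 and 54.3 CPM at 0 h and 76.1 and 78.6 CPM at 24 h, and that of 8 fibroblast markers was 23.2 and 24.1 CPM at 0 h and 24.3 and 25.8 CPM at 24 h. Of the 4 basal markers tested at 24 h, 2 were called higher, among them KRT15 (1.63 ± 0.073), and 1 lower, DST (-0.31 ± 0.068), while NGFR was not called. The part of the basal and fibroblast markers in the falls was not tested. The 1 h and 24 h comparisons share the 0 h libraries. Tested directly at 24 h against 1 h, 5 antigens were lower and 1 (PSCA, 0.69 ± 0.18, adjusted p = 0.00118) higher, with 45.7% of all genes called (24.5% lower and 21.2% higher).

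In R219S against WT all 8 tested antigens were called, 6 lower and 2 higher, where 62.1% of all genes were called (31.6% lower and 30.5% higher). The 5 genes FOLH1, STEAP1, STEAP2, EPCAM and PSCA were called lower by at least 2-fold, against 7.22% of all genes. DLL3 and NECTIN4 were the 2 that rose. The median log2 fold change was -1.90 over the 8 and 0.0034 over all genes.

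**Figure D2:**
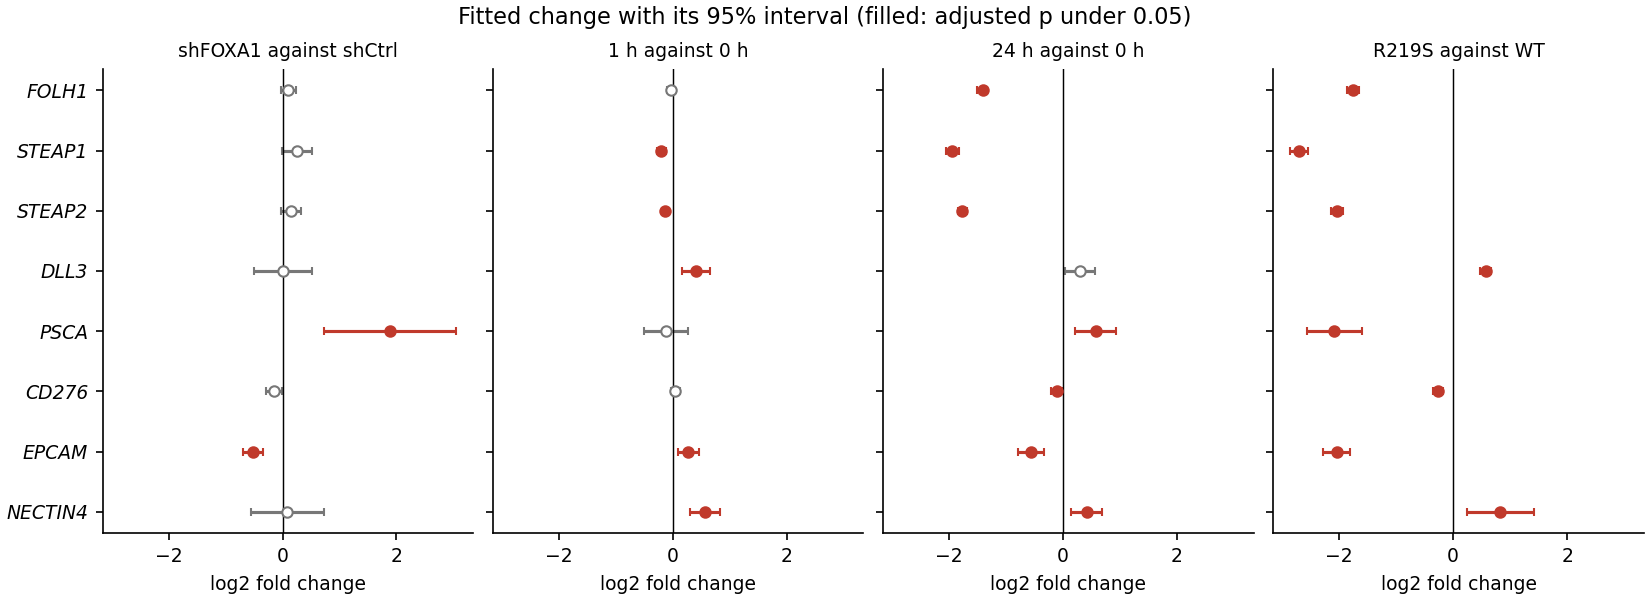
Fitted log2 fold change of the 8 tested antigen genes in the 4 comparisons, with 95% intervals from the edgeR fit (2 libraries per group). Filled points passed an adjusted p of 0.05. FOLH1, STEAP1 and STEAP2 lie far below 0 at 24 h (-1.41, -1.94 and -1.77) and in R219S (-1.76, -2.71 and -2.04), and near or just above 0 in shFOXA1.

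FOLH1 (ENSG00000086205) encodes PSMA, a glutamate carboxypeptidase that is the target of radioligand imaging and therapy. It was at 704 and 691 CPM in shCtrl and at 755 and 718 CPM in shFOXA1. The shFOXA1 libraries were the higher pair without overlap, but the gene was not called (log2 fold change 0.10 ± 0.058, adjusted p = 0.223, 95% interval -0.022 to 0.23). It was at 315 and 322 CPM at 0 h, 317 and 308 CPM at 1 h, and 119 and 127 CPM at 24 h. The 0 h and 1 h values overlapped (-0.033 ± 0.029, adjusted p = 0.493), and both 24 h libraries were far below them. At 24 h FOLH1 stood at 38.7% of its 0 h level (log2 fold change -1.41 ± 0.04, adjusted p = 2.78e-23), and it ranked 495 from the lowest among 19607 genes. WT libraries held 127 and 131 CPM, and R219S libraries 37.1 and 38.1 CPM. That fall to 29.2% of WT (-1.76 ± 0.051, adjusted p = 1.32e-149) was called in all alternatives run, as was the 24 h fall.

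FOLH1B is a near-identical copy of FOLH1, and the counting rule for reads that match both is not given in the sources used here. It had 47 and 45 counts at 0 h beside 10805 and 11453 for FOLH1. The copy moved with FOLH1 at 24 h (-1.20 ± 0.36, adjusted p = 0.0063), though its call ended with DESeq2 (adjusted p = 0.0798) or without 24 h replicate 1 (adjusted p = 0.0745). FOLH1B was not found by name among the genes counted for WT and R219S. The part of reads shared between the copies was not tested.

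STEAP1 (ENSG00000164647), a member of the STEAP metalloreductase family and the target of T cell engagers and conjugates, fell the most of the set at 24 h. Its level was 89.3 and 90.6 CPM at 0 h, 78.2 and 79.2 CPM at 1 h, and 24.6 and 23.6 CPM at 24 h. No libraries of these 3 groups overlapped, and the steps were -0.20 ± 0.041 at 1 h (adjusted p = 0.000125) and -1.94 ± 0.055 at 24 h (adjusted p = 2.11e-23). A direct test of 24 h against 1 h gave -1.75 ± 0.052 (adjusted p = 3.64e-31). In R219S it was at 9.28 and 8.48 CPM against 57.9 and 59.2 CPM in WT, 15.2% of the WT level. The change of -2.71 ± 0.078 (adjusted p = 2.11e-151) ranked 182 from the lowest among 13990 genes.

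STEAP2 (ENSG00000157214), the neighbouring metalloreductase gene, followed the same course. It was at 344 and 342 CPM at 0 h, 319 and 308 CPM at 1 h, and 103 and 104 CPM at 24 h. The 24 h libraries held 30.2% of the 0 h level, with a log2 fold change of -1.77 ± 0.039 (adjusted p = 3e-26). WT libraries were at 119 and 122 CPM and R219S libraries at 28.9 and 29.2 CPM (-2.04 ± 0.054, adjusted p = 1.1e-168). The small fall at 1 h (-0.13 ± 0.029, adjusted p = 0.000323) was not called after correction for GC content and transcript length (-0.031, adjusted p = 0.511) or without 1 h replicate 2 (-0.10, adjusted p = 0.14). Across 18705 genes, which are not independent replicates, the 1 h changes had a Spearman's rho of 0.323 with the GC content of the transcript, which is 36.9% for STEAP2 and 42.5% for STEAP1. STEAP1 kept its 1 h call under that correction (-0.17, adjusted p = 0.00131).

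In the knockdown neither STEAP gene was lower. STEAP1 was at 114 and 107 CPM in shCtrl and 145 and 114 CPM in shFOXA1, and STEAP2 at 407 and 378 against 463 and 391 CPM. The groups overlapped for both, and replicate 1 was the higher shFOXA1 library. Neither was called, with 0.26 ± 0.11 for STEAP1 (adjusted p = 0.14, 95% interval -0.001 to 0.51) and 0.15 ± 0.078 for STEAP2 (adjusted p = 0.201, 95% interval -0.024 to 0.32). Without shFOXA1 replicate 2 both were called higher, at 0.42 (adjusted p = 6.28e-13) and 0.26 (adjusted p = 3.82e-05). STEAP1B, a copy of STEAP1, had at most 5 counts in any library.

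EPCAM (ENSG00000119888), a homophilic adhesion molecule of epithelial cells, was lower in 3 comparisons. It went from 49.7 and 56.4 CPM in shCtrl to 36.8 and 35.8 CPM in shFOXA1, with no overlap (-0.52 ± 0.081, adjusted p = 0.000808). Levels of 12.3 and 12.2 CPM at 0 h were followed by 14.7 and 15 CPM at 1 h and by 7.57 and 9.52 CPM at 24 h. Both later groups lay outside the 0 h values, above at 1 h and below at 24 h. The 24 h fall was -0.56 ± 0.11 (adjusted p = 8.25e-05), and 24 h against 1 h was -0.84 ± 0.10 (adjusted p = 2.23e-09). The 1 h rise was 0.27 ± 0.092 (adjusted p = 0.0246) and was not called without any 1 of the 4 libraries (adjusted p from 0.0701 to 0.124) or with DESeq2 (adjusted p = 0.189). In R219S EPCAM was at 4.04 and 3.56 CPM against 15.4 and 16.2 CPM in WT, 24% of that level (-2.04 ± 0.12, adjusted p = 2.34e-52).

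NECTIN4 (ENSG00000143217) is a nectin of cell junctions and the target of an approved antibody conjugate in bladder cancer. It was scarce, at 1.14 and 1.4 CPM in shCtrl and 1.15 and 1.5 CPM in shFOXA1, which overlapped (0.083 ± 0.29, adjusted p = 0.871). In tagged cells it was at 5.6 CPM in both 0 h libraries, 8.43 and 8.23 CPM at 1 h, and 8.26 and 7.16 CPM at 24 h. All 4 treated libraries were above 0 h, with 0.57 ± 0.13 at 1 h (adjusted p = 0.000487) and 0.42 ± 0.13 at 24 h (adjusted p = 0.00836). The 24 h call ended without 24 h replicate 1 (0.31, adjusted p = 0.12) and with DESeq2 (adjusted p = 0.112). WT libraries held 0.806 and 1.14 CPM and R219S libraries 1.62 and 1.7 CPM, a rise of 0.83 ± 0.30 (adjusted p = 0.0111) on 31, 30, 35 and 44 counts. That rise was not called with DESeq2 (adjusted p = 0.155), nor without WT replicate 1 (0.57, adjusted p = 0.205), nor when R219S replicate 2 was left out (adjusted p = 0.0775).

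PSCA (ENSG00000167653), a small lipid-anchored protein of the Ly6 family, changed in opposite directions at 24 h and in R219S. It was at 2.65 and 3.63 CPM at 0 h, 2.93 and 2.88 CPM at 1 h, and 5.2 and 4.47 CPM at 24 h. The 1 h values lay within the 0 h range, and both 24 h libraries lay above it (0.58 ± 0.18, adjusted p = 0.0075). This rise was not called with DESeq2 (adjusted p = 0.0993), nor without 0 h replicate 1 (0.36, adjusted p = 0.137), nor when 24 h replicate 1 was left out (0.46, adjusted p = 0.0706). WT libraries held 3.72 and 3.94 CPM and R219S libraries 0.742 and 1.01 CPM, a fall to 22.8% (-2.09 ± 0.25, adjusted p = 1.68e-15). In the hairpin libraries PSCA had 4 and 8 counts in shCtrl against 25 and 18 in shFOXA1 (1.88 ± 0.54, adjusted p = 0.024). It passed the filter on low counts only through shFOXA1, and the rise was not called when shCtrl replicate 1 was left out (1.51, adjusted p = 0.188), nor on leaving out shCtrl replicate 2 (2.41, adjusted p = 0.0729), nor without the first shFOXA1 library (1.66, adjusted p = 0.103). Exons of PSCA overlap those of JRK on the other strand in GENCODE 29, and without a stated strand setting their reads cannot be told apart. JRK, at 66.6 ± 0.946 CPM at 0 h, also rose at 24 h (0.25 ± 0.049, adjusted p = 6.4e-05). It was not found by name among the genes counted for WT and R219S. The part of such shared reads in the PSCA changes was not tested.

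DLL3 (ENSG00000090932) is an inhibitory ligand of the Notch pathway that reaches the surface of neuroendocrine tumour cells, where a T cell engager targets it. It was at 57.2 and 59.3 CPM in WT and at 88.3 and 83.5 CPM in R219S, a rise of 0.58 ± 0.05 (adjusted p = 1.35e-27) with no overlap. The neuroendocrine markers as a list did not rise with it: of 4 tested, SCG2 and SYP were called higher and ENO2 and CHGB lower, and their summed level fell from 70.2 and 79.7 CPM to 41.2 and 42.8 CPM. NEUROD1 was at 0 counts in both groups, and the part of these markers in the DLL3 change was not tested. At 0 h DLL3 was at 6.91 and 5.99 CPM, at 1 h at 7.87 and 9.31 CPM, and at 24 h at 8.69 and 7.66 CPM. Both later groups were above 0 h, by 0.41 ± 0.13 at 1 h (adjusted p = 0.0136) and by 0.30 ± 0.13 at 24 h, which was not called (adjusted p = 0.0524). The 1 h call ended with DESeq2 (adjusted p = 0.152), without 0 h replicate 2 (adjusted p = 0.168), without 1 h replicate 2 (adjusted p = 0.253) and after the GC and length correction (0.24, adjusted p = 0.232). The GC content of DLL3 is 64.9%. The 24 h value was called under several alternatives, with an adjusted p of 0.0258 on library totals alone and 0.0414 with a filter of at least 1 CPM. Knockdown libraries overlapped, at 3.21 and 2.11 CPM in shCtrl and 2.72 and 2.52 CPM in shFOXA1 (95% interval -0.50 to 0.52).

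CD276 (ENSG00000103855) encodes B7-H3, an immune regulatory protein of the B7 family that many solid tumours carry. Its fitted changes were small in all 4 comparisons. Levels were 58 and 57.5 CPM in shCtrl against 51.4 and 50.8 CPM in shFOXA1 (-0.15 ± 0.067, adjusted p = 0.126), a pair without overlap that was called after the GC and length correction (-0.25, adjusted p = 0.0168). They were 106 and 99.5 CPM at 0 h, 106 in both libraries at 1 h, and 99.7 and 95.7 CPM at 24 h. The 24 h change of -0.11 ± 0.045 (adjusted p = 0.0368) came with overlapping libraries. It was not called with DESeq2 (adjusted p = 0.146), on library totals alone (-0.071, adjusted p = 0.203), without 0 h replicate 1 (adjusted p = 0.303) or without 24 h replicate 2 (adjusted p = 0.287). In R219S it went from 106 and 110.4 CPM to 91.2 and 86.4 CPM, 81.9% of WT (-0.27 ± 0.046, adjusted p = 2.43e-08).

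CEACAM5 (ENSG00000105388), a lipid-anchored adhesion molecule of gut epithelium that some neuroendocrine prostate tumours carry, was at 0 counts in 12 of the 14 libraries. The others were 1 shFOXA1 library with 6 counts and 1 library at 24 h with 1 count. A count of 0 allows a level of up to 0.043 CPM over the 0 h libraries and 0.0633 CPM over the R219S libraries, taking 3 counts as the limit, which covers counting error only. In GENCODE 29 its exons overlap those of AC243967.1 on the same strand, and since the rule for such reads is not given, reads left out or given to that gene are not covered by this limit. No change of CEACAM5 was detectable at this depth.

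Whether the antigen changes differed in size between the 3 systems was tested directly. The hairpin left FOXA1 mRNA at a fitted 0.721 of shCtrl, and the data hold no FOXA1 protein level for any system. The differences therefore cannot be read as responses to an equal loss of FOXA1. FOLH1, STEAP1 and STEAP2 fell at 24 h relative to their change in the knockdown, by differences of -1.51 ± 0.07 (adjusted p = 3.63e-12), -2.19 ± 0.14 (adjusted p = 1.17e-06) and -1.91 ± 0.09 (adjusted p = 3.24e-11). These 3 were the ones called of 8, and 22.7% of all genes were called for this difference, 13.2% lower and 9.45% higher. EPCAM, called lower in both systems, had a difference of -0.032 ± 0.14 (adjusted p = 0.91, 95% interval -0.32 to 0.26). PSCA had a difference of -1.29 ± 0.52 that was not called (adjusted p = 0.0796).

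The R219S change was compared with the 24 h change in the same way, after joining the tables by symbol. FOXA1 mRNA itself was lower in R219S than in WT (-0.57 ± 0.036, adjusted p = 1.28e-45). Here 6 of 8 antigens were called, all in the direction of a lower value in R219S, and 55.6% of all genes were called, 26.9% in that direction and 28.7% in the other. EPCAM (-1.50 ± 0.17, adjusted p = 4.24e-12) and PSCA (-2.69 ± 0.31, adjusted p = 4.43e-12) had the widest differences, and for PSCA the 2 changes pointed in opposite directions. STEAP1 fell further in R219S by 0.79 ± 0.10 on the log2 scale (adjusted p = 1.88e-10), FOLH1 by 0.37 ± 0.064 (adjusted p = 8.84e-07), STEAP2 by 0.29 ± 0.065 (adjusted p = 0.000103) and CD276 by 0.18 ± 0.064 (adjusted p = 0.0127). DLL3 (0.25 ± 0.12, adjusted p = 0.0646, unadjusted 95% interval 0.016 to 0.49) and NECTIN4 (0.39 ± 0.31, adjusted p = 0.285, 95% interval -0.22 to 1.00) were not called.

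**Figure D3:**
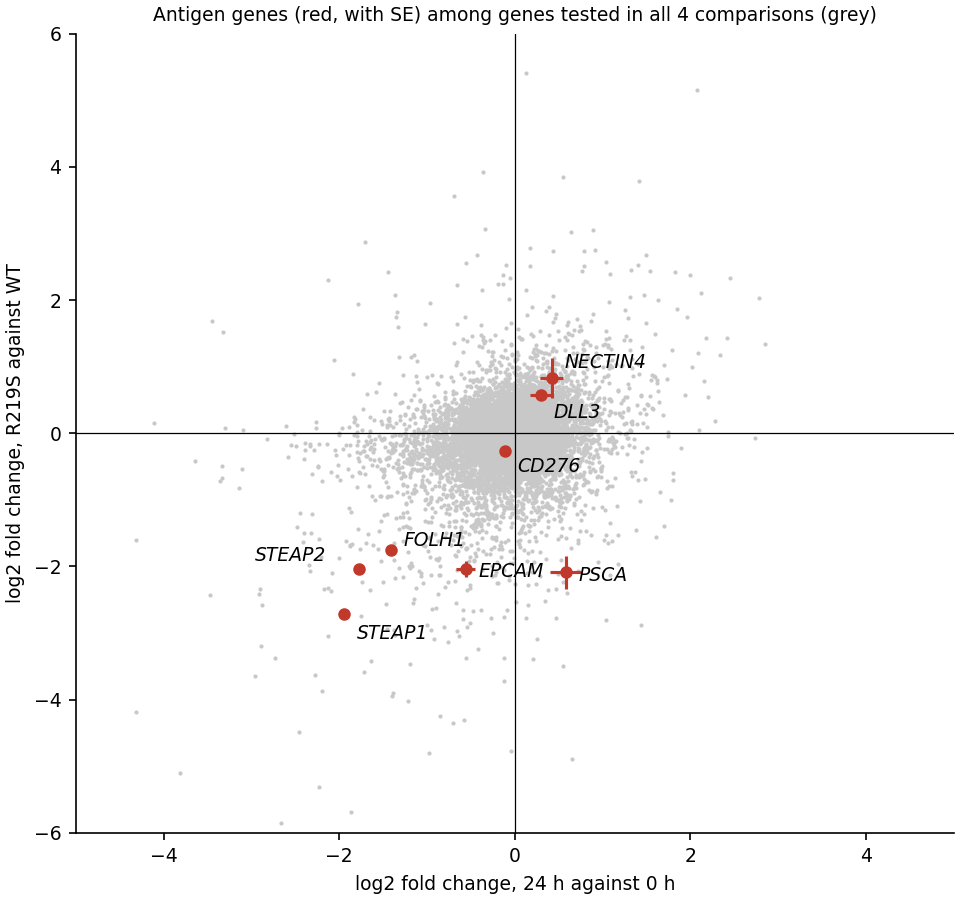
Log2 fold change in R219S against WT (vertical) plotted over that at 24 h against 0 h (horizontal), for 11886 genes tested in all 4 comparisons with a mean of at least 1 CPM in every table (grey, 7 of them beyond the axes) and the 8 antigens (red, bars are standard errors). FOLH1, STEAP1 and STEAP2 sit in the lower left, EPCAM and PSCA low with smaller or opposite 24 h changes, and CD276 near the centre.

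The genes whose 4 log2 fold changes lay nearest to those of each antigen (Euclidean distance) were listed as a description. Nearest to FOLH1 was CORO2A at a distance of 0.216 (0.03, -0.035, -1.53 and -1.92 in shFOXA1, 1 h, 24 h and R219S). CORO2A was also among the nearest to STEAP2, at 0.309, behind STXBP6 at 0.291. RAB3B was nearest to STEAP1, but at 0.569, and KCNMA1 nearest to PSCA at 0.707. INHBB (0.297) and EMP2 (0.298) lay nearest to EPCAM, DUSP2 (0.206) and DLL1 (0.233) to NECTIN4, FAM156B (0.159) to DLL3, and DDX59 (0.0404) to CD276.

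Family relatives of the antigens did not all move with them. Of 29 relatives, 16 were tested at 24 h, with 4 higher and 7 lower (median -0.24), and 15 in R219S, with 5 higher and 8 lower (median -0.32). Over all genes, 22.1% were called higher and 24.8% lower at 24 h, and 30.5% and 31.6% in R219S. STEAP3, an iron reductase of the STEAP family, was at 16.5 ± 0.412 CPM at 0 h and 14.6 ± 0.73 at 24 h (-0.22 ± 0.088, adjusted p = 0.0405), and rose in R219S by 0.45 ± 0.076. STEAP4 fell in R219S from 1.88 ± 0.139 to 0.402 ± 0.307 CPM (-2.14 ± 0.36, adjusted p = 1.54e-08). STEAP4 passed the filter on low counts through WT, since its R219S libraries did not both reach it. It is among the 8 called lower in R219S and enters their median, as are 2 genes named below, VTCN1 and LYPD3. NAALADL2, a relative of FOLH1, fell at 24 h from 22 ± 0.498 to 9 ± 0.448 CPM (-1.33 ± 0.091), and LY6E, of the PSCA family, from 16.4 ± 0.151 to 7.66 ± 0.795 CPM (-1.14 ± 0.10).

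Within the B7 family of CD276, CD274 (PD-L1) rose in R219S from 2.05 ± 0.0064 to 19.7 ± 1.43 CPM (3.27 ± 0.13, adjusted p = 9.34e-101). VTCN1 (B7-H4) had 119 counts in WT and 1 in R219S, a ratio of 86.9 with an exact 95% interval of 15.3 to 3462 that covers counting error only. LYPD3, a Ly6 domain protein, had 228 and 4 counts, a ratio of 41.6 (16 to 154, counting error only). Both genes passed the filter on low counts only through WT, and both are among the 8 relatives called lower in R219S. At 24 h CD274 went from 0.616 ± 0.0359 to 1.41 ± 0.193 CPM (1.15 ± 0.34, adjusted p = 0.00606), a call that ended with DESeq2 (adjusted p = 0.0797) or without 24 h replicate 2 (adjusted p = 0.0753). In the knockdown 1 of 12 tested relatives was called, NECTIN2, which was lower (-0.38 ± 0.094, adjusted p = 0.0116) but not without shCtrl replicate 2 (adjusted p = 0.167). Of all genes, 23.6% were called in the knockdown and 19.8% at 1 h. At 1 h 3 of 16 relatives were called, all higher: ICOSLG (0.43 ± 0.076), LY6E (0.31 ± 0.08) and NECTIN2 (0.28 ± 0.059). LY6E lost that call with DESeq2 (adjusted p = 0.0593) and after the GC and length correction (adjusted p = 0.237).

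Notch genes were counted because DLL3 is a Notch ligand. In R219S 9 of 14 tested fell and 2 rose, where 31.6% of all genes were called lower and 30.5% higher. Among the 9 was the target HES1, which fell from 71.8 ± 0.000123 to 16.1 ± 1.17 CPM (-2.14 ± 0.066, adjusted p = 4.73e-139). NOTCH3, a receptor, fell by 1.76 ± 0.14 on the log2 scale and HES6 by 1.31 ± 0.079, and HEYL had 76 counts in WT and 3 in R219S, a ratio of 18.5 (6.1 to 91.7, counting error only). HEYL passed the filter on low counts only through WT, and it is among the 9. At 24 h 3 rose and 2 fell of 14, where 46.9% of all genes were called. HES1 was at 0.29 ± 0.062 and the feedback inhibitor NRARP at -0.59 ± 0.083. The target HEY1 rose at 1 h from 8.91 ± 0.564 to 21.4 ± 1.24 CPM (1.26 ± 0.092, adjusted p = 2.32e-20), 1 of 3 higher and 1 lower among 15. Of all genes, 19.8% were called at 1 h and 23.6% in shFOXA1. In shFOXA1 NOTCH3 (33.8 ± 0.03 to 16.6 ± 4.17 CPM, adjusted p = 0.002), HES4 (-0.93 ± 0.12) and HES6 (-0.81 ± 0.15) fell and NOTCH1 rose (0.32 ± 0.071), of 14 tested. HES6 lost this call without shCtrl replicate 2 (adjusted p = 0.0602) and NOTCH1 without shCtrl replicate 1 (adjusted p = 0.0927).

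Partners of EPCAM and of nectins split. TSPAN8, a tetraspanin, fell at 24 h from 4.06 ± 0.748 to 0.746 ± 0.134 CPM (-2.48 ± 0.25) and in R219S from 1.46 ± 0.0304 to 0.209 ± 0.0331 CPM (-2.75 ± 0.45). In the R219S comparison TSPAN8 passed the filter on low counts only through WT, and it is among the 4 called lower there. CD44, a hyaluronan receptor, rose in shFOXA1 (1.08 ± 0.14), at 24 h from 57.8 ± 1.28 to 175 ± 6.14 CPM (1.55 ± 0.045) and in R219S (0.80 ± 0.057). CLDN7, the claudin that binds EPCAM, was at -0.034 ± 0.043 at 24 h and 0.0076 ± 0.045 in R219S, neither called. All 15 genes of this list were tested in each comparison, and 2 rose and 1 fell in shFOXA1, 3 and 0 at 1 h, 6 and 3 at 24 h, and 6 and 4 in R219S. The shares called over all genes were 23.6% in shFOXA1, 19.8% at 1 h, 46.9% at 24 h and 62.1% in R219S.

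**Figure D4:**
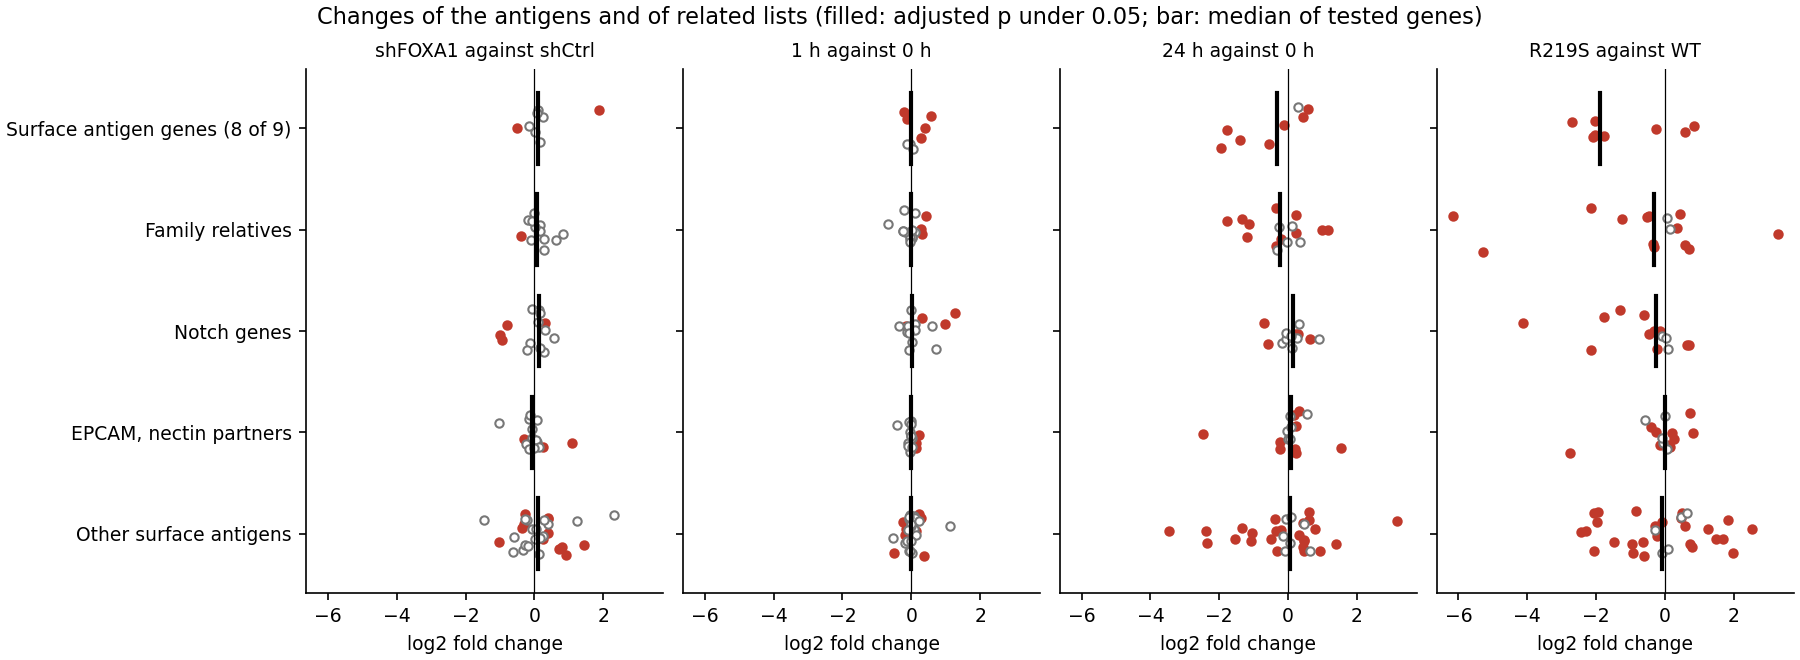
Log2 fold change of each tested gene of the antigen set and of 4 related lists in the 4 comparisons. Filled points passed an adjusted p of 0.05 and black bars are medians of the tested genes. The antigens had a median of -0.34 at 24 h and -1.90 in R219S, while the 46 other surface antigens had medians of 0.047 and -0.10 over the 31 tested in each.

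Other surface antigens under therapy in solid tumours moved both ways. Of 46, 31 were tested at 24 h, with 12 higher and 12 lower, and 31 in R219S, with 11 higher and 15 lower. The shares called over all genes were 46.9% at 24 h, 62.1% in R219S, 23.6% in shFOXA1 and 19.8% at 1 h. CDH6, a cadherin, fell at 24 h from 24.2 ± 2.69 to 2.25 ± 0.249 CPM (-3.47 ± 0.13) and in R219S from 11.4 ± 0.352 to 2.05 ± 0.544 CPM (-2.43 ± 0.15). TMEFF2, a prostate and brain membrane protein, fell at 24 h from 16.4 ± 0.982 to 3.31 ± 0.165 CPM (-2.35 ± 0.12) and also in R219S (-1.98 ± 0.11). GRPR, the receptor of gastrin-releasing peptide, rose at 24 h from 0.186 ± 0.025 to 1.76 ± 0.368 CPM (3.17 ± 0.42, adjusted p = 2.13e-07). GRPR passed the filter on low counts only through 24 h, and it is among the 12 called higher. GPNMB, a melanosomal glycoprotein, rose in R219S from 29.9 ± 0.413 to 170.0 ± 2.56 CPM (2.52 ± 0.05), while SLC44A4, a choline transporter, fell from 23.3 ± 0.855 to 5.53 ± 0.317 CPM (-2.06 ± 0.10). At 24 h GPNMB also rose (1.40 ± 0.035) and SLC44A4 also fell (-1.09 ± 0.11). IGF1R rose in shFOXA1 (0.92 ± 0.078) and fell in R219S (-2.28 ± 0.082). ERBB2 rose at 24 h (0.46 ± 0.045) and fell in R219S (-0.95 ± 0.041). In shFOXA1 8 rose and 4 fell of 30, with GPC3 at 1.44 ± 0.15 and MET at -1.02 ± 0.12, and at 1 h 5 rose and 5 fell of 30, with FGFR3 at 0.36 ± 0.039 and EPHA2 at -0.50 ± 0.062. MET fell at 24 h (-1.34 ± 0.19) but rose in R219S (1.82 ± 0.18). FGFR3 fell in both (-0.33 ± 0.049 and -1.49 ± 0.047).

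Several prostate lineage genes were read beside the antigens. FKBP5, a steroid-responsive chaperone, rose in shFOXA1 from 309 ± 7.56 to 832 ± 136 CPM (1.46 ± 0.11, adjusted p = 0.000168). In R219S the membrane protease TMPRSS2 fell (-4.89 ± 0.16), as did the secreted kallikreins KLK3 (-2.52 ± 0.11) and KLK2 (-1.77 ± 0.062). Markers of other cell types moved in R219S too: summed fibroblast markers went from 217 and 225 CPM in WT to 506 and 518 CPM, of which COL3A1 was at 277 ± 3.7 CPM and 6.48 ± 0.805 in WT. COL1A2 was at 0 counts in both groups and COL1A1 fell (-0.89 ± 0.083). Of the 7 basal markers, KRT15, a keratin, rose at 24 h from 14.5 ± 1.28 to 46.2 ± 0.352 CPM (1.63 ± 0.073, adjusted p = 3.11e-18) and in R219S from 3.99 ± 0.0891 to 15.7 ± 1.02 CPM (2.00 ± 0.12, adjusted p = 5.14e-53), while DST fell in both. NGFR, another basal marker, fell in R219S (-1.94 ± 0.24, adjusted p = 1.92e-14). KRT17 and TP63 were at 0 counts at both 0 h and 24 h. The summed basal level lay between 43.4 and 46.7 CPM in WT and between 39.6 and 42.7 CPM in R219S, with KRT17 at 0 in both groups and KRT5 at 0 in R219S. The part of these markers in the antigen changes was not tested.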

How the data were processed

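Counts per gene were taken as the authors deposited them, as raw whole-number counts with no normalization. Per the submitters' processing notes, STAR, featureCounts and DESeq2 and the build hg19 were used; versions, annotation and strand setting are not given in the sources used here. Both degradation tables held the same 0 h counts. Dates stood in place of 26 gene names of the R219S file, which stayed in the fits unnamed. Ensembl identifiers were matched to symbols (52337 of 57904 in the knockdown table), and older symbols in the R219S table to current ones. Exon lengths and GC content came from GENCODE 29, whose build differs from that of the counts. Promoter windows are from RefSeq.

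Each comparison used its 4 libraries and the quasi-likelihood F test of edgeR 4.0.16 (R 4.3.3), robust, after filterByExpr and TMM scaling, with calls at a Benjamini-Hochberg adjusted p under 0.05. The 24 h against 1 h test used 6 libraries, and the differences between changes used 8 libraries (19026 symbols joined for R219S). Standard errors were obtained by dividing the size of each log2 fold change by the root of its F value. Alternatives were other scalings, filters, DESeq2 1.42.0, the replicate block, GC and length offsets and leaving out each library. Scripts were tested on simulated data. The 9 genes and the lists were chosen with earlier results of these data known. Named list genes were, per list and comparison, up to 4 called genes with the largest absolute change and a mean of at least 1 CPM in either group; for each antigen the 2 genes nearest in its 4 changes were named, with others named after their values were seen (STEAP3, ERBB2, CLDN7, COL3A1, COL1A1, KRT15, DST, JRK, STEAP1B). Library values within a group varied by a chi-square per degree of freedom of 2.04 to 11.8, and no pair was treated as a duplicate. The value of 11.8 was that of shFOXA1, and the next highest was 4.04 in shCtrl. Some genes of the lists are not reported here.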

Additional observations from a re-analysis of the deposited data

Results flagged for a closer look

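Several antigens changed by different amounts in different systems, by a test of the difference itself in edgeR. For 24 h against the knockdown, the difference in log2 fold change was -1.51 for FOLH1, -2.19 for STEAP1 and -1.91 for STEAP2. For R219S against 24 h, the difference was -0.37 for FOLH1, -0.79 for STEAP1, -0.29 for STEAP2, -2.69 for PSCA, -0.18 for CD276 and -1.50 for EPCAM. PSCA was higher at 24 h and lower in R219S, each in both libraries. With 2 libraries per group no value could be examined as an outlier within its group, and every per-sample column of the tables was used.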

How the results depend on the processing

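Of 438 antigen values recomputed under the alternatives, 397 kept their direction and their side of the threshold, 28 lost a call, 13 gained one and 0 changed direction. FOLH1, STEAP1, STEAP2 and EPCAM kept their calls at 24 h and in R219S under every alternative run there. The causes of the changes below were not tested, except that leaving out a library leaves fewer samples. In the knockdown the antigens called higher numbered 1, against 0 with DESeq2 (which gave PSCA no adjusted p), 0 with at least 1 CPM in 2 libraries (PSCA then untested), 2 with no filter, and 0 to 3 without single libraries; those called lower numbered 1, against 2 with GC and length offsets. Genes called in the knockdown numbered 4506, and 1713 to 6793 with 1 library left out: 1713 and 2421 on dropping shCtrl replicates 2 and 1, and 6793 on dropping the first shFOXA1 library. At 1 h genes called numbered 3850, against 1854 with DESeq2 and 2232 to 3422 without single libraries, the lowest without 1 h replicate 2. Antigens higher at 1 h numbered 3, against 1 with DESeq2 and 1 to 3 without single libraries; those lower numbered 2, against 1 with GC and length offsets and 1 to 2 without single libraries. At 24 h antigens higher numbered 2, against 0 with DESeq2 and 0 to 2 without single libraries, and in R219S 2, against 1 with DESeq2 and 1 to 2 without single libraries. A lone library left in a group was assumed to vary like the other group.

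Same-numbered replicates did not deviate together (r from -0.016 to 0.0338 across genes), so the numbers were not taken as pairing. With the replicate block, genes called numbered 4412 in the knockdown, 3909 at 1 h, 9868 at 24 h and 8441 in R219S; antigens higher in the knockdown numbered 2, with STEAP1 added (0.25, adjusted p = 0.0353), and DLL3 was called at 24 h (0.30, adjusted p = 0.0373). The replicate block with GC and length offsets gave 2 higher and 2 lower in the knockdown and 1 lower at 1 h. Depth limits PSCA, NECTIN4 and CEACAM5, which had few counts in several groups.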
